A study of Mus musculus with 4 samples.

Results

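This account covers 7 mouse genes that make, package, sense or break down the inhibitory transmitter GABA, or that anchor its receptors, and the Elavl contact sites found on their RNA. The genes are Gad1, Gad2, Slc32a1, Abat, Gphn, Gabbr1 and Gabbr2, out of 21900 protein-coding genes in the RefSeq table of build GRCm38. A peak belonged to a gene when it overlapped the gene's span by at least 1 nt on the strand that carried most of the gene's peaks. By this rule the 7 genes held 2 of the 7335 peaks in N2A cells and 180 of the 97775 peaks in cortex. N2A is a mouse neuroblastoma line and was represented by 1 sample, and the cortex samples, labelled as brain tissue, numbered 3. Elavl RNA contacts were captured by HITS-CLIP, in which ultraviolet light fixes a protein to RNA before the RNA still attached to it is purified and sequenced. The degenerate linker was 7 nt long in N2A and 25 nt long in cortex, so linker and sample type cannot be told apart. The labels name no genotype, strain, sex, treatment or antibody, and do not say which Elavl proteins were captured. The cortex list is named for 2 months, which the labels do not explain, and they do not say whether cortex samples came from separate animals.

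Neurons make GABA from glutamate with glutamate decarboxylase, which exists in a form spread through the cell (Gad1, GAD67) and a form bound to vesicle membranes (Gad2, GAD65). The transporter Slc32a1 (VGAT) loads GABA into synaptic vesicles, and the mitochondrial transaminase Abat starts its breakdown. Released GABA acts on GABA-A receptors, which are chloride channels held beneath the synapse by the scaffold gephyrin (Gphn), and on GABA-B receptors, which couple to G proteins and form from a ligand-binding subunit (Gabbr1) and a subunit that signals (Gabbr2). Elavl proteins bind U-rich and AU-rich stretches in introns and in 3′ untranslated regions, where they affect splicing, stability and translation. Exons and the genome sequence were not used here, so a position is given as the distance to the start or end of the gene's span, and no base sequence of a peak is printed.

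Each group had 1 peak list, with peaks 50 to 51 nt wide and 1 p-value per peak from the authors' peak calling. No read counts and no values per sample were in the lists. Depth and the spread between the cortex samples are therefore unknown, and no test between N2A and cortex could be made. Intervals below are exact Clopper-Pearson 95% intervals that cover counting error only. They treat each peak as a separate draw, although peaks of 1 gene lie on the same RNA, so they may be too narrow. They say nothing of the reads behind a peak, where PCR copies of a molecule are not separate molecules. The p-value was used to rank peaks within its own list. Peaks follow both the amount of an RNA and its binding. In tissue, fewer cells of a type and less RNA per cell cannot be told apart either. Among all coding genes 14.4% had N2A peaks and 40.8% had cortex peaks, and lists of 5 to 9 markers say little beside these shares. Of 9 sympathoadrenal markers, 4 had N2A peaks and 2 had cortex peaks, while none of the excitatory neuron, interneuron and glial markers had N2A peaks. In cortex, peaks lay in 6 of 6 excitatory neuron markers, 4 of 6 interneuron markers, 5 of 6 astrocyte and 5 of 6 oligodendrocyte markers, 3 of 5 endothelial markers and 1 of 6 microglia markers. Markers of cerebellar granule cells, a cell type that the cortex label does not cover, had cortex peaks in 6 of 6 genes as well, among them Cbln3 with 4 (strongest p 9.55e-109) and Gabra6 with 11 (strongest p 2.08e-42). That list was added after the data had been seen, and the part of cerebellar RNA in the results below was not tested.

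Peaks were found in Gphn and Gabbr1 alone among the 7 genes in N2A, and in every gene but Slc32a1 in cortex. The 2 of 7 genes with N2A peaks stand beside 14.4% of all coding genes, and the 6 of 7 with cortex peaks beside 40.8%. Among coding genes within a factor of 1.25 of each gene's length, the share with cortex peaks was mostly higher. It was 28.8% for Slc32a1, 50.6% for Gabbr1, 56.8% for Gad1, 66.6% for Gad2, 72.6% for Abat, 83.4% for Gabbr2 and 88.1% for Gphn. Gphn held 1 N2A peak and 129 cortex peaks, Gabbr2 had 0 and 24, Gabbr1 1 and 9, Abat 0 and 9, Gad2 0 and 5, Gad1 0 and 4, and Slc32a1 0 and 0. Gphn therefore carried most of the cortex peaks of the set, and without it 51 remained in the other 6 genes. The median was 9 cortex peaks per gene, whereas the median over all coding genes was 0. The 7 genes are longer, with a median span of 72.9 kb against 17.1 kb for all coding genes. Coding genes with lengths within a factor of 1.25 of Gad1, Gad2 and Abat had medians of 1, 3 and 5 cortex peaks, and 67.1%, 57.2% and 60.2% of them had fewer than the gene in question. These medians include genes without any cortex peak. Among those with cortex peaks the medians were 4, 7 and 9, so Gad1 and Abat were at the median and Gad2 was below it.

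**Figure D1:**
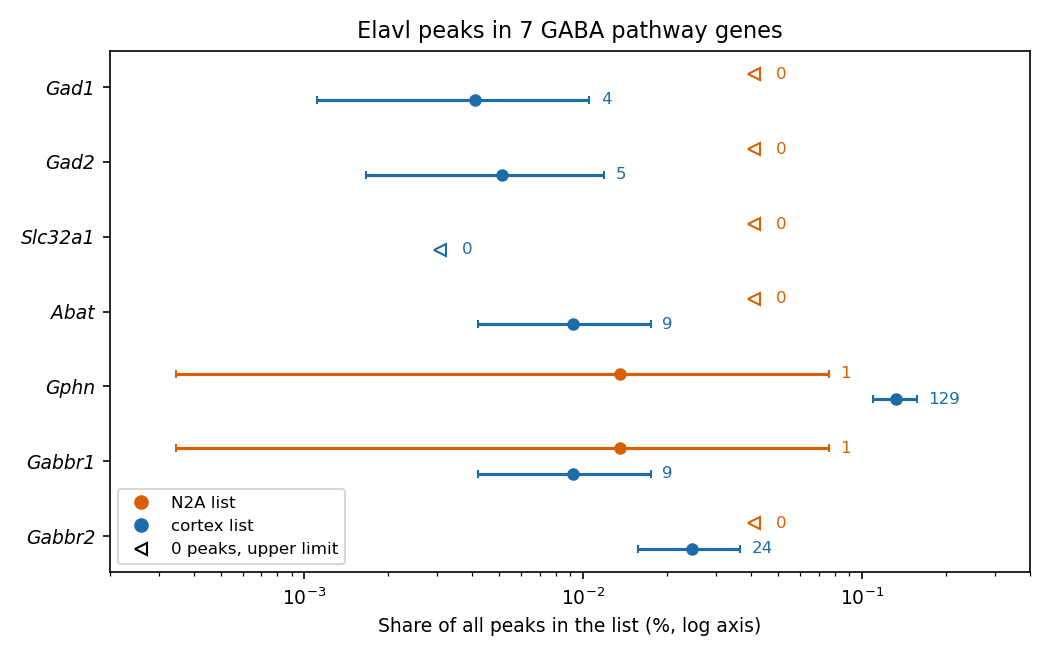
Share of all peaks in a list that lay in each gene, in percent on a log axis, with N2A above cortex for each gene, bars showing exact 95% intervals and the number of peaks printed beside each point. Open triangles mark 3 counts of the list's total, 0.0409% in N2A and 0.00307% in cortex, as the limit for 0 peaks in place of an exact interval. The Gphn intervals, 0.000345% to 0.0759% in N2A and 0.11% to 0.157% in cortex, do not meet when each peak is treated as a separate draw.

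Both decarboxylase genes had their strong cortex peaks close to the gene end. Gad1 (chromosome 2, 70561303 to 70602014, plus strand, 40.7 kb) had 4 cortex peaks. The strongest, chr2:70601509-70601560, had a p of 1.16e-19 and lay 0.479 kb from the end, and its neighbours at 0.355 kb and 1.06 kb had p of 1.77e-18 and 9.60e-15. The remaining Gad1 peak lay 24.5 kb from the end with a p of 0.0445. Thus 3 strong Gad1 sites sat together within the last 1.06 kb, and 23.5 kb before them held no peak.

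Gad2 (chromosome 2, 22621015 to 22693877, plus strand, 72.9 kb) had 5 cortex peaks, and its strongest ranked higher in the list than that of Gad1. That peak, chr2:22691117-22691168, lay 2.73 kb from the end with a p of 4.08e-116, rank 503 of 97775, whereas the best Gad1 peak ranked 5184. A Gad2 peak 0.242 kb from the end had a p of 6.59e-23, and others at 0.7 kb and 3.5 kb had p of 4.25e-06 and 0.000821. The remaining Gad2 peak, 31.6 kb from the end, was weak (p of 0.0704). Among coding genes with cortex peaks, 95.2% had a weaker best peak than Gad2 and 72.6% a weaker one than Gad1.

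Slc32a1 (chromosome 2, 158607260 to 158615747, 8.49 kb, plus strand in RefSeq) had 0 peaks in either list. With the limit for 0 peaks set at 3 counts of the list's total, a share of up to 0.0409% of N2A peaks and up to 0.00307% of cortex peaks is allowed. The exact interval for 0 peaks reaches 0.0503% in N2A and 0.00377% in cortex. The next 10 kb beyond its end held 0 peaks as well. Slc32a1 is the shortest of the 7 genes, and of 2064 coding genes whose lengths lay within a factor of 1.25 of it, 28.8% had a cortex peak. The vesicular transporters of glutamate all had cortex peaks, with 3 in Slc17a7, 6 in Slc17a6 and 2 in Slc17a8, beside 40.8% of all coding genes with such peaks. Their spans of 12.2, 49.3 and 47.2 kb are longer than that of Slc32a1, so they are not matched to it. The best Slc17a8 peak was weak (p of 0.0186).

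Abat (chromosome 16, 8513429 to 8621568, plus strand by its peaks, 108 kb) resembled the decarboxylases in where its strong peaks lay. Of its 9 cortex peaks, 6 lay in the last 2.86 kb, and the strongest, chr16:8621248-8621298, had a p of 8.32e-50 at 0.295 kb from the end. The next had a p of 3.43e-34 at 0.788 kb, and another strong peak had 9.58e-12 at 1.38 kb. The other peaks near the Abat end had p of 0.00117, 0.0228 and 0.0851. The 3 peaks farther inside Abat, 41.6 to 80.7 kb from the end, were all weak, with p from 0.0229 to 0.0664.

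Gabbr1 held the strongest peak of the set. The gene (chromosome 17, 37045966 to 37074305, plus strand, 28.3 kb) had 9 cortex peaks, and the one at chr17:37074065-37074116, 0.214 kb from the end, had a p listed as 0, a value shared by 65 cortex peaks. Its second strongest peak lay at the other side of the gene, at chr17:37048850-37048900, 2.91 kb from the start, with a p of 4.72e-80 and rank 911. Between them, a peak 10.6 kb from the start had a p of 1.27e-06, and the other 6 had p from 0.000362 to 0.0664. Gabbr1 was also dense in peaks for its size, with 31.8 per 100 kb. Its 9 peaks compare with a median of 1 over 2660 coding genes of similar length, 93.3% of which had fewer. Among those with cortex peaks the median was 3.

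Gabbr2, the partner subunit, showed another layout over a span more than 10 times as long. The gene (chromosome 4, 46662318 to 46991714, minus strand, 329 kb) had 24 cortex peaks, or 7.29 per 100 kb. The strongest, chr4:46662840-46662891, had a p of 1.68e-106 at 0.547 kb from the end, and a peak at 1.57 kb had a p of 3.76e-12. The other 22 were spread along the gene with a median p of 0.0236. Strong ones among them were chr4:46951661-46951711, 40 kb from the start (p of 2.09e-23), and chr4:46743249-46743299, 81 kb from the end (p of 3.14e-16). Coding genes of similar length had a median of 14 peaks, or 19 among those with cortex peaks, and 62.2% of all of them had fewer than Gabbr2. Most Gabbr2 peaks were weak, and 6 of the 24 had a p under 0.01. Over all coding genes, 67.7% of cortex peaks within 5 kb of the end and 46.5% of those elsewhere had such a p. The weakest Gabbr2 peak (p of 0.0996) also lay in the span of the noncoding gene Gm32208, which runs on the other strand.

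**Figure D2:**
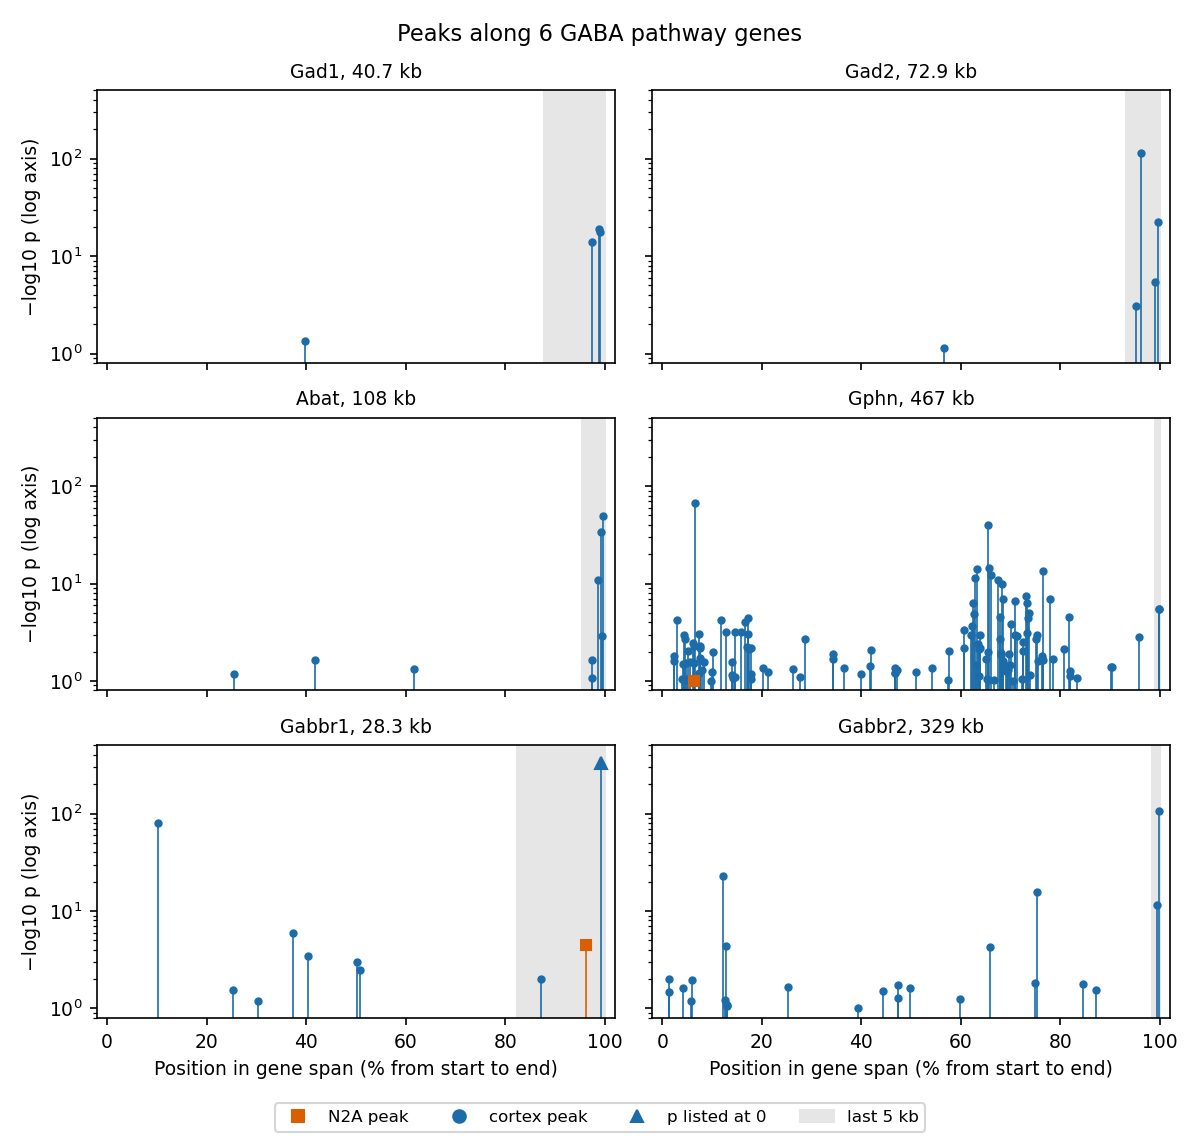
Each peak of 6 genes by its position along the span, from the start (0%) to the end (100%) in transcript direction, against −log10 of its p-value on a log axis, with N2A peaks as squares, cortex peaks as circles, a triangle where p is listed at 0 and the last 5 kb shaded. The strongest cortex peak lies in the shaded end of Gad1, Gad2, Abat, Gabbr1 and Gabbr2, and 437 kb before the end of Gphn.

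Gphn differed from the other genes in both the number and the place of its cortex peaks. It spans 467 kb on the plus strand of chromosome 12 (78217325 to 78684772), and its 129 cortex peaks made up 0.132% of the list (0.11 to 0.157). More cortex peaks were found in 65 coding genes. Coding genes of similar length had a median of 26, or 29 among those with cortex peaks, and 94.5% of the 235 compared had fewer than Gphn. The strongest Gphn peak, chr12:78247643-78247693, lay 30.3 kb from the start with a p of 2.41e-67, and the next, chr12:78523099-78523150, lay 306 kb from the start with a p of 2.37e-40. Only 2 Gphn peaks lay within 5 kb of the end, at 0.788 kb and 0.631 kb, with p of 3.03e-06 and 3.79e-06.

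The Gphn peaks were concentrated in 2 zones. From the start to 93.5 kb there were 42 peaks (44.9 per 100 kb), and from 280 to 374 kb there were 58 (62 per 100 kb). These zones held 100 of the 129 peaks, 77.5%. Between 93.5 and 280 kb there were 19 peaks (10.2 per 100 kb), and beyond 374 kb there were 10 (10.7 per 100 kb). Of the 64 Gphn peaks with a p under 0.01, 56 lay in these zones. They are a part of the peaks that set the zones, so this count is no separate evidence for them. The later zone held 7 of the 8 Gphn peaks in both zones with a p under 1e-10, and the earlier one held the strongest of all.

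**Figure D3:**
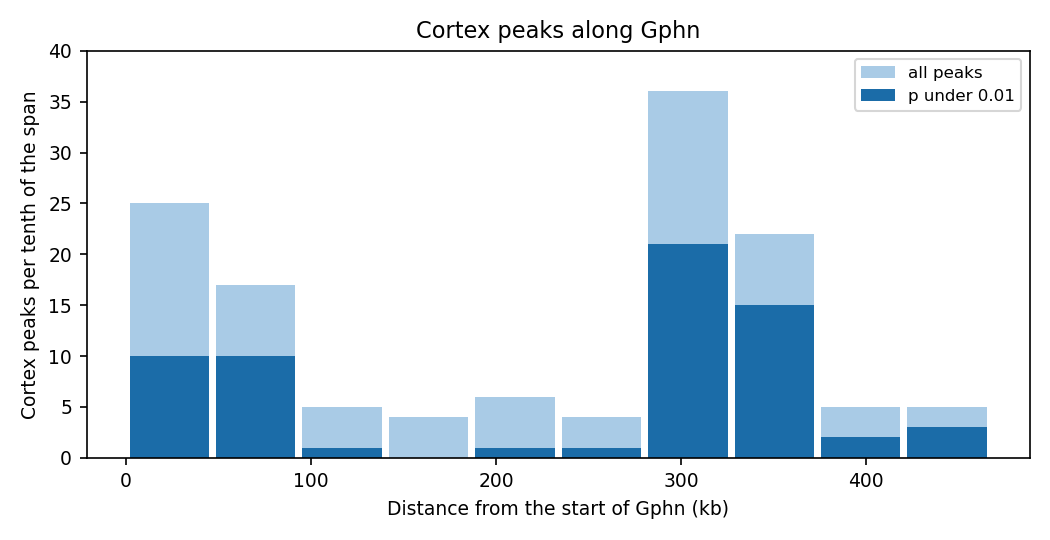
Number of cortex peaks in each of 10 equal parts of the Gphn span, by distance from the gene start in kb, with all peaks in light blue and those with a p under 0.01 in dark blue. The parts hold 25, 17, 5, 4, 6, 4, 36, 22, 5 and 5 peaks, so that peaks gather at the start and between 280 and 374 kb.

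Across the set, the peaks near a gene end were the stronger ones. Of the 180 cortex peaks, 19 (10.6%) lay within 5 kb of the end, and 11 of these 19 had a p under 1e-10, against 11 of the 161 elsewhere. The median p was 3.76e-12 near the end and 0.0159 elsewhere. Among the peaks of all coding genes the medians were 0.000388 and 0.0132, and 25.6% and 6.38% had a p under 1e-10. Gphn held 127 of the 161 peaks elsewhere. Without Gphn, 11 of 17 peaks near the end and 3 of 34 elsewhere had a p under 1e-10. In Gabbr1 the median p was 0.0048 near the end and 0.00103 elsewhere. In Gphn the 2 end peaks had p of 3.03e-06 and 3.79e-06, and the best peak elsewhere had 2.41e-67. The strongest cortex peak lay within 5 kb of the end in 5 of the 6 genes with peaks, beside 59.9% of all coding genes with cortex peaks. The window made up 17.6% of the Gabbr1 span and 1.07% of the Gphn span. With only 2 kb as the window the strongest peak lay inside it in 4 genes, since the best Gad2 peak is 2.73 kb from the end.

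**Figure D4:**
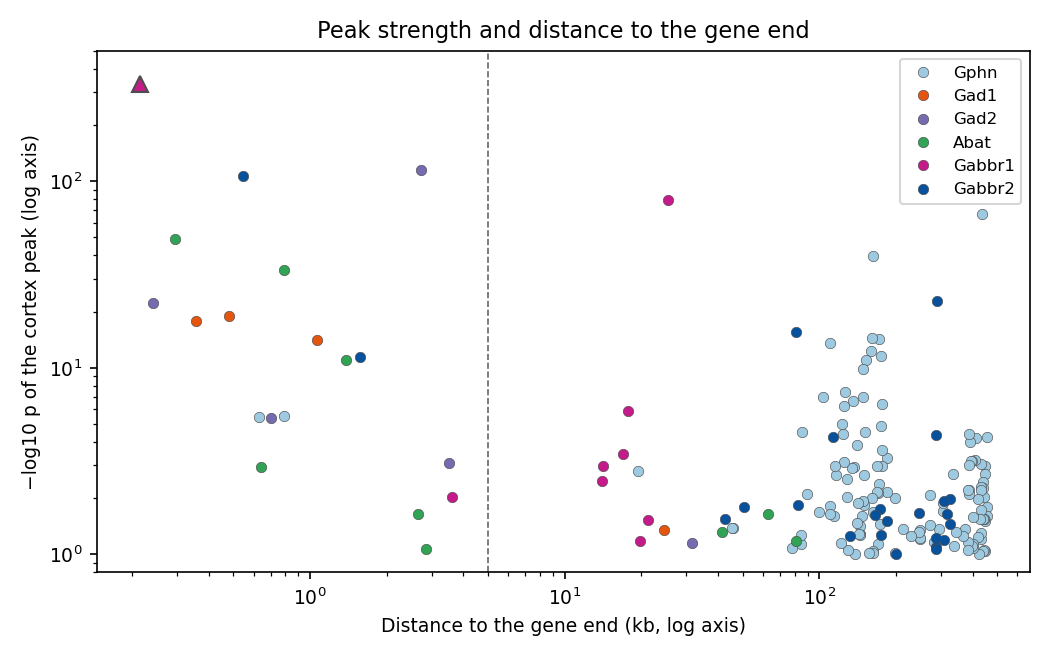
Distance of each cortex peak to the gene end in kb against −log10 of its p-value, both on log axes, coloured by gene, with the dashed line at 5 kb and a triangle for the Gabbr1 peak whose p is listed at 0. Within 5 kb of the end 11 of 19 peaks have a p under 1e-10, and beyond it 11 of 161, of which Gphn holds 127.

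The 2 N2A peaks were compared with the cortex sites to ask whether the line and the tissue shared them. The share of all N2A peaks that overlap a cortex peak was not computed. The 2 sites therefore have no background to stand beside and are described by position only. The N2A peak in Gphn, chr12:78247009-78247059, lay 29.7 kb from the start and overlapped a cortex peak whose midpoint was 9 nt away. Both peaks were among the weakest of their lists, with p of 0.0981 in N2A and 0.0908 in cortex, and the N2A one ranked 7312 of 7335. The strongest cortex peak of Gphn lay less than 1 kb further along. The N2A peak in Gabbr1, chr17:37073220-37073271, lay 1.06 kb from the end with a p of 3.14e-05 (rank 1963). It overlapped no cortex peak, and the nearest was the Gabbr1 peak with p listed as 0, whose midpoint was 845 nt away.

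The 7 genes took up 0.0273% of N2A peaks (0.0033 to 0.0985) and 0.184% of cortex peaks (0.158 to 0.213), a ratio of N2A to cortex shares of 0.148 (0.0178 to 0.543). At the cortex share 13.5 peaks would lie in them in N2A. Of these 13.5, 9.68 would lie in Gphn, for which the ratio was 0.103 (0.0026 to 0.586). For the other 6 genes together it was 0.261 (0.00649 to 1.52), an interval that includes 1. The lists also differed as a whole in where peaks lay. Of the peaks in coding genes, 80.4% in N2A and 20.3% in cortex were within 5 kb of a gene end, and 127 of the 129 Gphn cortex peaks were farther inside. Among end peaks alone the 7 genes held 1 of 5546 in N2A and 19 of 18738 in cortex (ratio 0.178, 0.00428 to 1.12). This interval includes 1, so a difference at gene ends was not detected with this number of N2A peaks. For Gad1, Gad2, Abat and Gabbr2 the cortex share lay under the 0.0409% that 3 counts of the N2A list make up, and so under the exact limit of 0.0503%, so a difference in these genes was not detectable.

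Other genes of GABA signalling were read from 7 lists with 68 genes, 7 (10.3%) with N2A peaks and 49 (72.1%) with cortex peaks. Beside every list stand 14.4% (N2A) and 40.8% (cortex) of all coding genes, whose median span was 17.1 kb. Lists with longer genes are not matched to these shares. The median span was 88.6 kb for GABA-A receptor subunits and 95.3 kb for GABA-B auxiliary subunits and effectors, but 4.81 kb for transcription factors. The GABA-A receptor subunits, the channels that gephyrin anchors, had N2A peaks in 1 of 19 and cortex peaks in 14 of 19. The beta subunit gene Gabrb2 had 0 N2A and 76 cortex peaks, Gabrg3 had 0 and 56, and Gabrb1 had 0 and 48. The strongest cortex peak lay within 5 kb of the gene end in 11 of the 14, beside 59.9% of all coding genes with cortex peaks. In Gabrg3 it lay 493 kb before the end of a 671 kb gene. Gabre, Gabrp, Gabrq, Gabrr1 and Gabrr3 had no cortex peak.

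Gephyrin's partners at the inhibitory synapse had N2A peaks in 5 of 15 genes and cortex peaks in 14 of 15, with glycine receptor gene Glra1 as the exception. Glrb, the glycine receptor subunit that binds gephyrin, had 14 cortex peaks (strongest p 6.36e-237). The glycine receptor subunit Glra3 had 10 and Lhfpl4, a GABA-A receptor partner, had 6. In N2A, Dynll2, a dynein light chain, had 4 peaks (strongest p 9.60e-111), and Nlgn2, Gabarapl2, Lhfpl4 and Dynll1 had 1 each. With a p under 0.01, N2A peaks lay in 2 of the 15, Dynll1 and Dynll2, beside 9.9% of all coding genes at that p. Gephyrin also completes the molybdenum cofactor, and of 7 genes for making or using that cofactor 0 had N2A peaks and 2 had cortex peaks, with 1 each in Mocs2 and Aox1.

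Auxiliary subunits and effectors of GABA-B receptors had N2A peaks in 1 of 11 genes (2 with both strands counted) and cortex peaks in 8 of 11. The auxiliary subunit Kctd16 had 106 cortex peaks and Kctd8 had 50, and the potassium channels Kcnj3 and Kcnj6, which GABA-B receptors open, had 104 and 24. Gnao1, a G protein alpha subunit, had 2 N2A and 15 cortex peaks. Kctd12b, Kcnj5 and Kcnj9 had no cortex peak. Of the genes that take up GABA or carry its breakdown further, 0 of 5 had N2A peaks and 3 of 5 had cortex peaks. The transporter Slc6a11 had 4 cortex peaks and Aldh5a1, which oxidises the product of Abat, had 8, while Slc6a12 and Slc6a13 had none. Transcription factors of GABA neurons had N2A peaks in 0 of 8 genes and cortex peaks in 5 of 8, with 1 each in Dlx1, Dlx2, Lhx6 and Sp9 and none in Dlx5, Dlx6 and Nkx2-1.

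**Figure D5:**
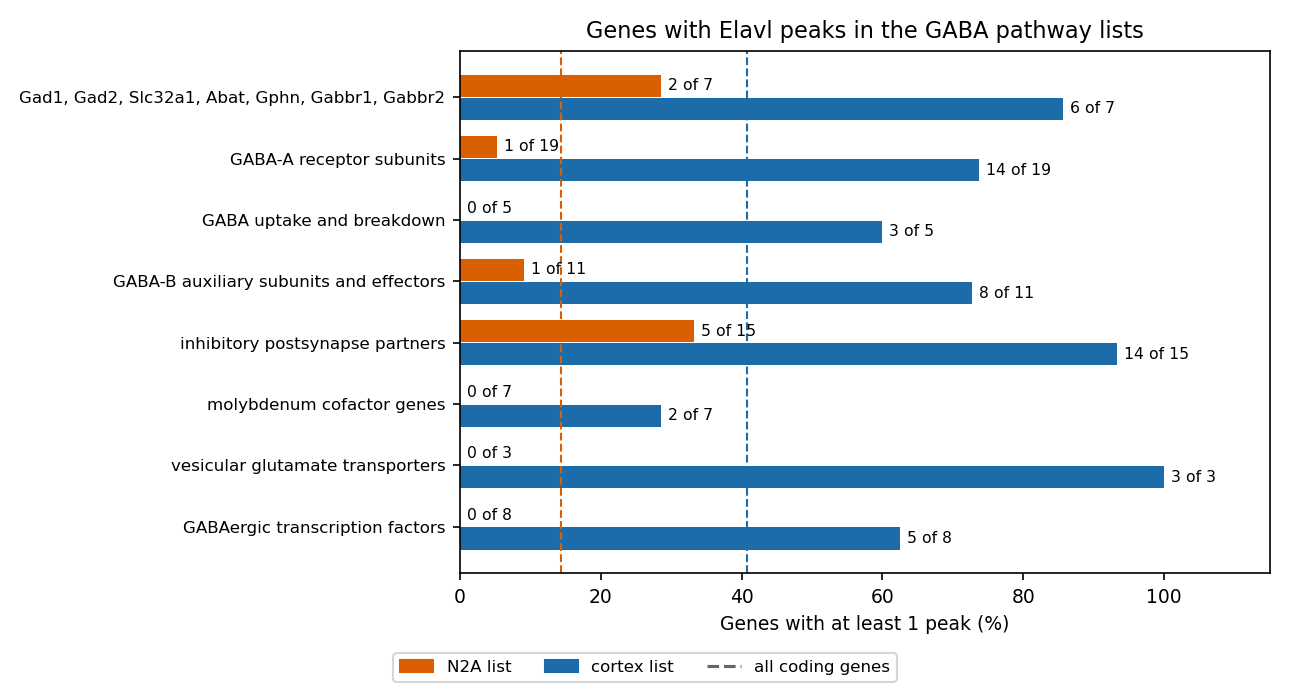
Percentage of genes with at least 1 peak in the 7 genes and in 7 lists of related genes, N2A bars above cortex bars, with the number of genes beside each bar and dashed lines at 14.4% (N2A) and 40.8% (cortex) for all coding genes. Cortex bars pass the cortex line in every list but the molybdenum cofactor genes. The lines take no account of gene length. Median spans were 88.6 kb for GABA-A receptor subunits, 95.3 kb for GABA-B auxiliary subunits and effectors and 4.81 kb for transcription factors. For all coding genes the median was 17.1 kb.

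Genes whose peak pattern was nearest to each of the 6 were found among the other 8932 coding genes with cortex peaks, by distance over 5 measures. These were peak numbers in N2A and in cortex, gene length, percentile of the best cortex p within the list and share of cortex peaks at the gene end. Genes near in percentile can differ in p, as with 9.16e-22 in Iqsec1 and 1.68e-106 in Gabbr2. Others were close, as with 1.85e-67 in Pde4b and 2.41e-67 in Gphn. Gphn came nearest to the phosphodiesterase Pde4b, with 1 N2A and 131 cortex peaks (distance 0.103 in SD units), and then to Nav3, with 1 and 148 (0.436). Tgs1 and Lasp1 were nearest to Gad1, Tnfrsf21 and the synaptotagmin Syt7 to Gad2, and Rab11fip4 and the calcium pump Atp2b4 to Abat, at distances from 0.0197 to 0.148. Heatr3 and Acat1 were nearest to Gabbr1 (0.266 and 0.289), and Nell2 and Iqsec1 to Gabbr2 (0.17 and 0.191).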

How the data were processed

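Elavl HITS-CLIP was measured in 1 N2A sample and 3 cortex samples, each group represented by 1 peak list in which no value belongs to a single sample. The deposited p-value of each peak comes from the authors' peak calling, per the file headers; how it was adjusted, which caller made it and whether reads were pooled is not stated by any label or header. Novoalign is listed as a tool, and a build named hg19 (human) as the genome, both per the submitters' processing notes. Chromosome names are those of mouse, and with peaks that touch 1 gene only, 98.6% of 6872 coding genes had most peaks on the strand that RefSeq GRCm38.p6 gives, so coordinates were read as GRCm38 and printed as deposited. Distances run from the peak's midpoint to the ends of the RefSeq span. A peak counted for every gene it touched. Ratios of shares have exact conditional intervals that also treat each peak as a separate draw. The 7 genes and all gene lists were chosen with earlier results of these data known. All 7 genes were named, with the 2 genes nearest to each and, per list, up to 4 genes with most cortex peaks, those with none and those with N2A peaks where they were 5 or fewer; some genes that this rule selects are not reported here. The code was tested on simulated peaks. Planned motif counts needed a genome and were not run. Alternatives were stricter p-values, other overlaps, both strands and other windows. Python 3.11.15, pandas 2.3.3 and SciPy 1.17.1 were used.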

Additional observations from a re-analysis of the deposited data

How the results depend on the processing

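Of 74 summary values recomputed under another setting, 53 were counted as not moved and 21 as moved. A value counted as not moved could still change, so 53 is no count of stable values. Without Gphn the ratio of N2A to cortex shares rose from 0.148 to 0.261. It stayed inside its interval of 0.0178 to 0.543 and was counted as not moved. The same holds for Gabbr1 cortex peaks, 9 as reported and 7 with p under 0.01. Of 154 values of single genes and lists, 11 moved. Among the 11, with p under 0.01 and with the stronger 50%, cortex peaks fell to 6 in Gabbr2 (24 as reported) and 4 in Abat (9), and to 64 and 62 in Gphn (129), and N2A peaks lay in 2 postsynapse partners (5). With only peaks of p under 0.01, the 7 genes held 1 N2A peak in 1 gene and 88 cortex peaks, the N2A peak of Gphn was lost, 0 N2A sites were shared with cortex, 9.9% (N2A) and 33% (cortex) of coding genes had peaks, 4 pathway genes had N2A peaks, and 19.3% of the cortex peaks lay at the gene end. With the stronger 50% of each list, the values were 1 N2A peak in 1 gene, 86 cortex peaks, 9.17% (N2A) and 32.9% (cortex) of coding genes, 4 pathway genes with N2A peaks, and 19.8% at the gene end. With only peaks that touch no other gene, 13% (N2A) and 37.7% (cortex) of coding genes had peaks. Without Gphn, a choice made after seeing the data, 1 N2A peak in 1 gene and 51 cortex peaks remained, 33.3% of these 51 at the gene end. Fewer peaks or genes were counted in each of these settings by construction. The number of genes with cortex peaks stayed at 6 in every setting that kept all 7 genes. No paired analysis was possible because the lists hold no values per sample. Replicates could not be left out for the same reason. The absence of read counts leaves depth unknown, and 7335 peaks in N2A limit what 0 or 1 peak in a gene can show.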

Other observations

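Markers of the cerebellum were looked up in both lists, with genes chosen after the Gabra6 peaks had been seen and no test made; among all coding genes 14.4% had N2A peaks and 40.8% had cortex peaks. Granule cell markers had N2A peaks in 0 of 6 genes and cortex peaks in 6 of 6. Zic1, a transcription factor of granule cells, had 5 cortex peaks (strongest p 3.76e-110), Fat2, a cadherin of their axons, had 7 (strongest p 0.000234), Cbln1, a synapse organiser, had 2 (strongest p 7.08e-56) and Neurod1 had 2 (strongest p 4.91e-13). No other gene was touched by the peaks of these 6 genes. Of 6 Purkinje cell markers, 0 had N2A peaks and 5 had cortex peaks, among them Calb1 with 9, Car8 with 9 and Itpr1 with 29, whereas Pcp2 had 0. Several of these genes are also active in other brain regions.

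Beyond the annotated end of Gabbr1, 4 further cortex peaks lay on the same strand outside every gene span, 768 to 2744 nt past the end, with p from 0.0288 to 0.0642. No peak of either list lay within 5 kb past the ends of the other 6 genes. In Gphn, 1 cortex peak (p of 0.0896) lay on the opposite strand, 7.53 kb from the start, and was not counted.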
